A study of Mus musculus with 9 samples.

Results

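The mRNAs described here encode 10 feedback inhibitors of the ERK pathway: the phosphatases Dusp1, Dusp4, Dusp5 and Dusp6, the Sprouty proteins Spry1, Spry2 and Spry4, and the Spred proteins Spred1, Spred2 and Spred3. They are taken by symbol from these families, and the symbols were chosen from earlier results on the same 9 libraries, with the differences between the groups compared below in view. The calls on these genes therefore describe them and support nothing further. All 10 were found among the 55453 rows of the count table and all 10 passed the filter on low counts, which kept 13568 genes. The study sequenced RNA from ST2, a wild-type stromal cell line from a mouse bone marrow culture (BC8 mice), grown in medium without ascorbic acid. The unfed group had 3 libraries from control cells collected at 24 h. The fed groups had 3 libraries each from cells given human neutrophils, which had been frozen and dyed beforehand, at 10 per ST2 cell for 3 h or 24 h and sorted for a dye signal of at least a whole neutrophil. No unfed library was taken at 3 h, so feeding, sorting for uptake and collection time cannot be told apart in the comparison of fed 3 h with unfed cells, nor feeding from sorting at 24 h. All libraries come from 1 cell line. The labels number the replicates without calling them separate cultures, so p-values measure the spread between these libraries, which may be technical.

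Growth factors and other stimuli activate the kinase ERK through receptor tyrosine kinases, RAS and RAF. Active ERK switches on genes whose products shut the same pathway down. The dual-specificity phosphatases (DUSPs) remove the activating phosphates from MAP kinases, Sprouty proteins act between the receptors and RAF, and Spred proteins bring the RAS inactivator neurofibromin to the membrane. In stromal and bone-forming cells this pathway is a known regulator of growth and differentiation. Since DUSP and Sprouty transcripts are short-lived and depend on ERK, they are often read as a record of recent signalling, although the DUSPs also answer to other stimuli.

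Total counts ran from 44442664 to 55971275 per library, and the members had between 207 and 10846 counts in a library. Levels are given as CPM, the count scaled to a common library total after TMM normalization. A gene is called higher or lower where edgeR's quasi-likelihood test gave a Benjamini-Hochberg adjusted p under 0.05 over all tested genes. Gene positions are on GRCm38, from GENCODE M21. The stromal markers (Col1a1, Col1a2, Col3a1, Pdgfrb, Cxcl12, Vcam1 and Runx2) summed to 29970 to 32180 CPM in unfed, 26980 to 27780 in fed 3 h and 33190 to 34890 in fed 24 h libraries. Most of the sum was Col1a1 and Col1a2 (means of 12570 and 10940 CPM in unfed cells). At 3 h against unfed cells Cxcl12 (log2 −1.33), Vcam1 (−0.60), Pdgfrb (−0.31) and Col1a2 (−0.17) were called lower and Col3a1 higher (0.43). At 24 h Cxcl12 (0.48), Col3a1 (0.39) and Runx2 (0.24) were called higher. The 10 neutrophil markers summed to 2.32 to 2.95, 0.755 to 1.42 and 3.38 to 4.29 CPM. Nearly all of this was Camp, while S100a9 and Ngp had 0 counts in all libraries and S100a8 at most 1. These are mouse symbols and the neutrophils fed were human, so the values cannot show whether human neutrophil RNA was present. Macrophage markers summed to 23.3 to 25.4, 27.9 to 28.9 and 24.7 to 28.1 CPM, with 0 counts of the defining marker Adgre1 throughout. Most of each sum was Cd14, at 17.0 to 23.7 CPM in a library. At 3 h against unfed cells Cd14 (log2 0.35), Cd68 (0.53) and Csf1r (1.14) were called higher and Lyz2 lower (−0.66). At 24 h Lyz2 was called higher (0.63) and the other tested markers were not called. Endothelial markers stayed at or below 0.189 CPM in sum. The part of other cells in the results below was not tested further.

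Dusp1, Dusp6 and the Sprouty genes were highest in cells fed for 24 h, whereas Dusp4, Dusp5 and Spred2 were highest in cells fed for 3 h. Spry1 had the widest span, with a mean in fed 24 h cells 7.74 times that in fed 3 h cells. Spred1 and Spred3 differed least, by 1.10 times between their highest and lowest group means. In such bulk libraries, fewer cells expressing a gene and less RNA of it per cell cannot be told apart. The plot of CPM by library shows each of these patterns.

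**Figure D1:**
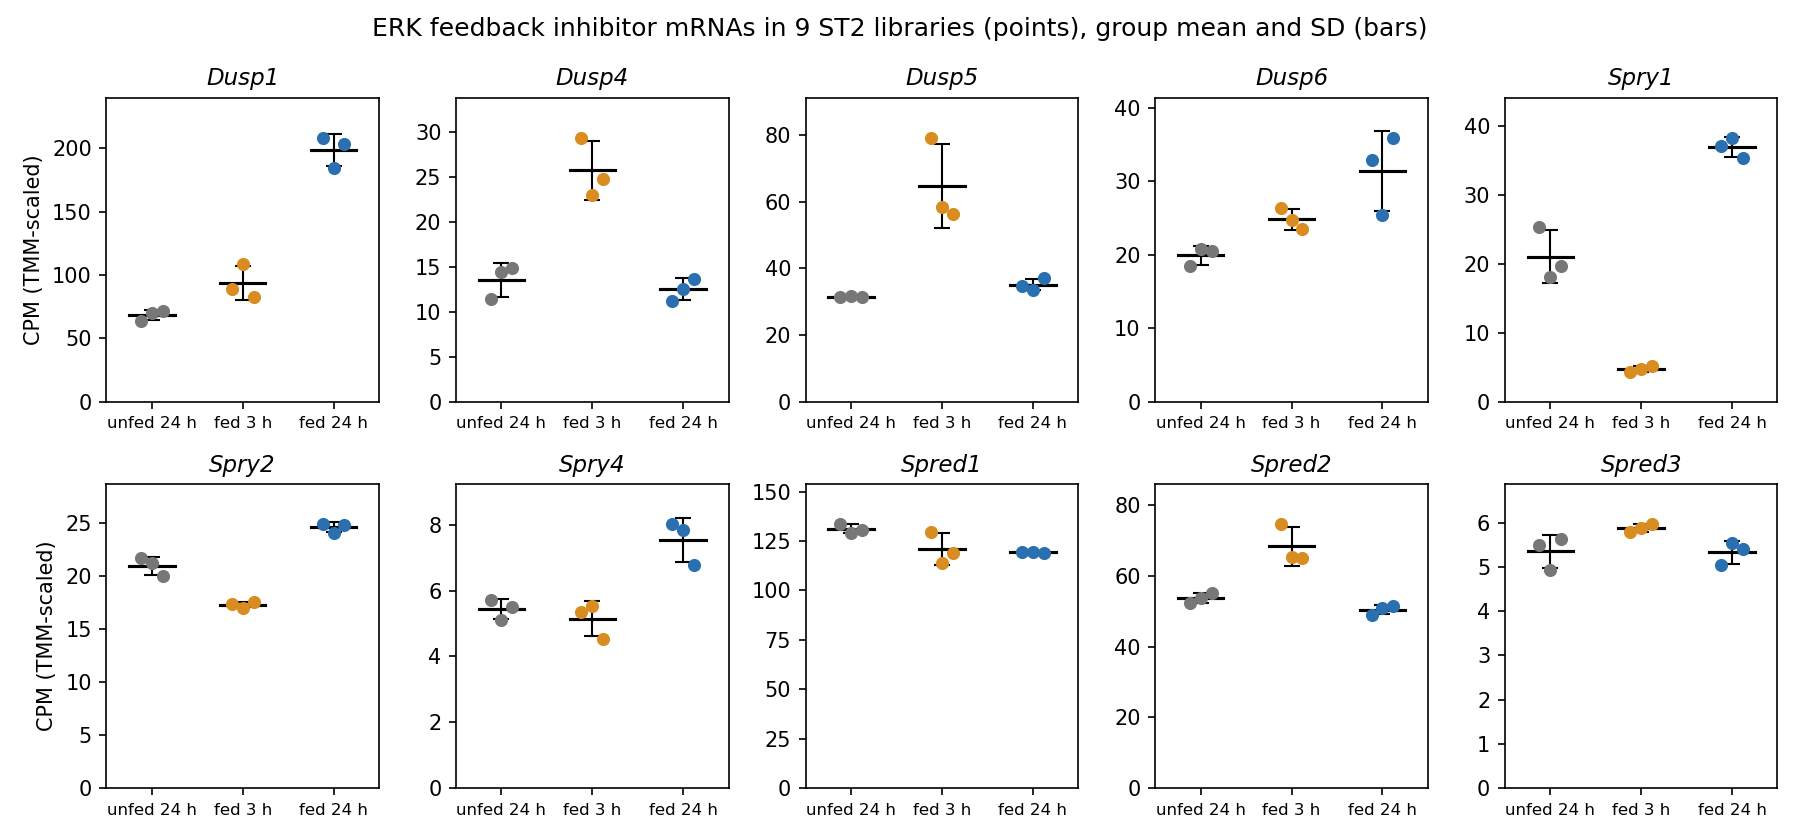
CPM of each of the 10 genes on the vertical axis (linear, from 0) in the unfed 24 h, fed 3 h and fed 24 h libraries, with each library as a point and bars for the group mean and SD (n = 3). The fed 24 h points of Dusp1 lie between 184.6 and 208.5 CPM, above the other Dusp1 points, and the fed 3 h points of Spry1 lie between 4.34 and 5.20 CPM, below the other Spry1 points.

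Dusp1, a nuclear phosphatase of the MAP kinases p38, JNK and ERK and a classic early response gene (chromosome 17, 26505590 to 26562128, minus strand), stood at 63.8, 69.8 and 71.5 CPM in the unfed libraries. It stood at 89.3, 108.5 and 82.4 CPM in the fed 3 h libraries and at 208.5, 184.6 and 203.6 CPM in the fed 24 h libraries. The groups did not overlap, and they rose in the order unfed, fed 3 h, fed 24 h. In fed 24 h cells the mean was 2.91 times that in unfed cells (log2 1.54, SE 0.0812, edgeR adjusted p = 5.88e-08). In fed 3 h cells it was 1.37 times that in unfed cells (log2 0.45, SE 0.0812, edgeR adjusted p = 0.000270). From fed 3 h to fed 24 h the difference was 2.13 times (log2 1.09, SE 0.0798, edgeR adjusted p = 1.29e-08). Among the tested genes, 99.8% had a lower log2 fold change than Dusp1 from unfed to fed 24 h cells.

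Dusp4 and Dusp5 followed another course. Dusp4, a nuclear phosphatase of ERK and JNK (chromosome 8, 34807297 to 34819894, plus strand), had 11.4, 14.4 and 14.9 CPM in unfed, 29.4, 23.0 and 24.8 CPM in fed 3 h and 11.2, 12.6 and 13.7 CPM in fed 24 h libraries. The fed 3 h libraries lay above the rest, and the other two groups overlapped. Dusp4 was 1.90 times higher in fed 3 h than in unfed cells (log2 0.92, SE 0.104, edgeR adjusted p = 2.85e-06). At 24 h it was not called against unfed cells (log2 −0.12, SE 0.108, edgeR adjusted p = 0.445). It was lower at 24 h than at 3 h of feeding (log2 −1.04, SE 0.103).

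Dusp5, a nuclear phosphatase specific for ERK (chromosome 19, 53529109 to 53542431, plus strand), had 31.4, 31.7 and 31.4 CPM in unfed, 79.3, 58.6 and 56.3 CPM in fed 3 h and 34.7, 33.7 and 37.1 CPM in fed 24 h libraries. Replicate 1 of the fed 3 h group stood above the other 2, and the 3 groups did not overlap. The mean in fed 3 h cells was 2.06 times that in unfed cells (log2 1.04, SE 0.0962, edgeR adjusted p = 3.86e-07), and without that library the log2 fold change was 0.87. From unfed to fed 24 h the difference was 0.16 (SE 0.0975) and was not called (edgeR adjusted p = 0.239). It was called without fed 3 h replicate 1 (0.16, edgeR adjusted p = 0.0269), in the fit of the 6 libraries compared (0.0364) and with no filter (0.0391), in a range of adjusted p from 0.0269 to 0.457 over the alternatives. From 3 h to 24 h of feeding Dusp5 fell by 0.88 on the log2 scale (SE 0.0949).

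Dusp6, a cytoplasmic phosphatase specific for ERK (chromosome 10, 99263231 to 99267489, plus strand), had 18.5, 20.8 and 20.5 CPM in unfed libraries. The fed 3 h libraries had 26.4, 24.7 and 23.5 CPM, and the fed 24 h libraries 32.9, 25.4 and 36.0 CPM. Both fed groups lay above the unfed group and overlapped each other through fed 24 h replicate 2. Dusp6 was 1.57 times higher at 24 h than in unfed cells (log2 0.65, SE 0.0980, edgeR adjusted p = 0.000212) and 1.25 times higher at 3 h (log2 0.32, SE 0.0995, edgeR adjusted p = 0.0145). The call at 3 h ended without unfed replicate 1 (log2 0.26, edgeR adjusted p = 0.0554) or fed 3 h replicate 1 (0.28, edgeR adjusted p = 0.0618), in a range of adjusted p from 9.39e-06 to 0.0618. Between 3 h and 24 h of feeding the difference was 0.34 (SE 0.0963, edgeR adjusted p = 0.00657).

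Spry1 was low at 3 h and high at 24 h of feeding. This Sprouty gene (chromosome 3, 37639947 to 37644598, plus strand), whose product restrains signalling from receptor tyrosine kinases to RAS, had 25.4, 18.1 and 19.7 CPM in unfed libraries. The fed 3 h libraries had 4.34, 4.81 and 5.20 CPM, and the fed 24 h libraries 37.2, 38.4 and 35.4 CPM. The 3 groups were far apart with no overlap. From unfed to fed 3 h cells Spry1 fell by 2.14 on the log2 scale (SE 0.112, edgeR adjusted p = 8.10e-10), and the unfed mean was 4.40 times the fed 3 h mean. From unfed to fed 24 h it rose by 0.81 (SE 0.0926, edgeR adjusted p = 3.02e-05), or 1.76 times. From 3 h to 24 h of feeding it rose by 2.95 (SE 0.109, edgeR adjusted p = 1.44e-11), where 99.6% of the tested genes had a lower value.

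Spry2, a close relative that also acts between receptors and RAF (chromosome 14, 105891947 to 105896819, minus strand), moved the same way as Spry1 but by less. Its unfed libraries had 21.7, 21.2 and 20.1 CPM, its fed 3 h libraries 17.4, 17.0 and 17.5 CPM and its fed 24 h libraries 24.9, 24.1 and 24.8 CPM, with no overlap. It fell by 0.28 at 3 h (SE 0.0529, edgeR adjusted p = 0.000415) and rose by 0.23 at 24 h (SE 0.0514, edgeR adjusted p = 0.00374), both against unfed cells. Spry4 (chromosome 18, 38586247 to 38601415, minus strand) was the least abundant of the 3 Sprouty members per kb of exon. It had 5.71, 5.12 and 5.49 CPM in unfed, 5.34, 5.55 and 4.54 CPM in fed 3 h and 8.04, 7.84 and 6.78 CPM in fed 24 h libraries. The fed 24 h libraries lay above the other 2 groups, which overlapped. Spry4 rose by 0.47 from unfed to fed 24 h (SE 0.103, edgeR adjusted p = 0.00300) and was not called at 3 h (−0.08, SE 0.107, edgeR adjusted p = 0.548).

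The Spred genes stayed closer together, with group means at most 1.35 times apart. Spred1, an adaptor that binds neurofibromin (chromosome 2, 117121374 to 117182279, plus strand), had 133.7, 129.3 and 130.8 CPM in unfed, 129.8, 113.9 and 118.9 CPM in fed 3 h and 119.3, 119.6 and 118.7 CPM in fed 24 h libraries. The fed 24 h libraries lay below the unfed ones, while the fed 3 h group overlapped both. Spred1 fell by 0.14 at 24 h (SE 0.0467, edgeR adjusted p = 0.0338) and by 0.12 at 3 h (SE 0.0467, edgeR adjusted p = 0.0448), both against unfed cells. Leaving out 1 library ended the call at 24 h in 5 cases, which were unfed replicates 1 and 3 and each of the fed 24 h replicates (log2 from −0.14 to −0.12, edgeR adjusted p up to 0.0907). The call at 3 h was lost on leaving out unfed replicates 1 or 3, or those numbered 2 or 3 at 3 h, at log2 values of −0.12 to −0.08. It was also lost under DESeq2 size factors, the DESeq2 Wald test, no filter and the fit of 6 libraries (adjusted p from 0.00572 to 0.229 over the alternatives).

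Spred2, a related adaptor (chromosome 11, 19924375 to 20024026, plus strand), had 52.4, 53.6 and 55.1 CPM in unfed, 74.7, 65.2 and 65.1 CPM in fed 3 h and 49.1, 50.8 and 51.5 CPM in fed 24 h libraries. The fed 3 h libraries were the highest, with no overlap. Spred2 rose by 0.35 from unfed to fed 3 h (SE 0.0545, edgeR adjusted p = 7.30e-05), was not called at 24 h against unfed cells (−0.09, SE 0.0548, edgeR adjusted p = 0.236) and fell by 0.44 between 3 h and 24 h (SE 0.0543). Spred3 (chromosome 7, 29158829 to 29170411, minus strand) lay between 4.93 and 5.97 CPM in all 9 libraries. It was called in none of the comparisons by edgeR, with unadjusted p-values of 0.974 at 24 h and 0.166 at 3 h against unfed cells. DESeq2 and limma-voom also made no call on it.

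Promoter sequences are shown for Dusp1 and Dusp5, which peak in different groups and are the members with the most motif letters in the window, and for Spry1, which spans the widest range. Windows run from 250 bases before to 50 bases after the start site in the RefSeq table of GRCm38.p6, which held 8 of the 10 members among 32851 windows. They are read on the strand of the gene, with matched letters in capitals: chr17:26508423-26508722 on the minus strand for Dusp1, chr19:53528895-53529194 on the plus strand for Dusp5 and chr3:37639697-37639996 on the plus strand for Spry1.
Dusp1: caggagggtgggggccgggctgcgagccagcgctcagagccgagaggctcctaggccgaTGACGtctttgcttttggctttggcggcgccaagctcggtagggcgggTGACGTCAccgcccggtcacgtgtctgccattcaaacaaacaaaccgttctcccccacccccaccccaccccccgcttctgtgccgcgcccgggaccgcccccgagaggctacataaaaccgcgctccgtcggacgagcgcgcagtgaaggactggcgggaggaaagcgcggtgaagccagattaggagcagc
Dusp5: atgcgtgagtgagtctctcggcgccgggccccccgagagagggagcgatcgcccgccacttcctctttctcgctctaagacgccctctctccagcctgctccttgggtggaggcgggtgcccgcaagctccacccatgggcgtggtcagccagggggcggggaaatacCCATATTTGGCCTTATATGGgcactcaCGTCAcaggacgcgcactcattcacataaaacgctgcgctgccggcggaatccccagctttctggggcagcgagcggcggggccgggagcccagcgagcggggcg
Spry1: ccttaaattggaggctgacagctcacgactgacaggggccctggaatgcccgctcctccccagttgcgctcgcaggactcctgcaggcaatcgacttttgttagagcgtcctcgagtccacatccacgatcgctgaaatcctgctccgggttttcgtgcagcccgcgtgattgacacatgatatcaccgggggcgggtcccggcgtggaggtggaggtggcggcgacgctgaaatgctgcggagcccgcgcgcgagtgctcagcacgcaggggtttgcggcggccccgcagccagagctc

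Both strands were searched for the cAMP response element (CRE, spelled TGACGTCA) and for the shorter part of it spelled TGACG. The AP-1 site was searched as TGACTCA, which on the other strand reads TGAGTCA. The EGR site was searched as GCGTGGGCG, the ETS core as CCGGAA and the TATA box as TATAAA, and the serum response CArG box was searched by name. The Dusp1 window held a full CRE at positions −143 to −136 from the start site and a further TGACG at −191 to −187. The full CRE occurred in 1.79% of all windows and TGACG, which the full element contains, in 20.8%. In the Dusp5 window 2 CArG boxes lay end to end, at −82 to −73 and −72 to −63, and TGACG lay on the opposite strand at −55 to −51. A CArG box occurred in 1.63% of all windows. Of the other windows, that of Spry2 held CCGGAA (14.9% of all windows) and that of Spred2 held TGACG. The windows of Dusp6, Spry1, Spred1 and Spred3 held none of these letters, which says nothing of other regions of those genes. AP-1 letters (5.20% of all windows in either spelling), the EGR motif (0.612%) and TATAAA (13.6%) were in none of the 8 windows. Such matches are descriptions of sequence, and binding was not measured.

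Levels were compared between genes only per kb of exon, with CPM divided by the summed length of all annotated exons. In unfed cells Dusp1 was the most abundant member at 20.7 ± 1.22 CPM per kb (SD, n = 3), followed by Spred1 at 19.4 ± 0.334. The libraries of these neighbours overlapped. Dusp5 (12.7 ± 0.0796), Spred2 (11.6 ± 0.302), Spry2 (10.1 ± 0.406), Spry1 (7.26 ± 1.31), Dusp6 (6.36 ± 0.402) and Dusp4 (4.95 ± 0.697) came next. Among these, Spry1 and Dusp6 overlapped. Spry4 (1.14 ± 0.0634) and Spred3 (0.861 ± 0.0593) were the lowest. At 3 h of feeding Dusp5 was second at 26.2 ± 5.13 CPM per kb, overlapping Dusp1 at 28.2 ± 4.09, and Spry1 stood lower than all but Spry4 and Spred3, at 1.65 ± 0.148. Spred1, Spred2, Dusp4, Spry2 and Dusp6 lay between, in that order of means, and the libraries of Dusp4, Spry2 and Dusp6 overlapped. In fed 24 h cells Dusp1 stood at 60.1 ± 3.82 CPM per kb, against 17.6 ± 0.0646 for Spred1, which came next with no overlap. There Dusp5, Spry1 (12.7 ± 0.510), Spry2, Spred2, Dusp6, Dusp4, Spry4 and Spred3 followed in order of means. Among these, Spred2 and Dusp6 overlapped. Exon lengths come from the annotation of all transcripts, and 3311 bases for Dusp1 include upstream exons of longer transcripts, so its value per kb is a low estimate if those are not used.

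**Figure D2:**
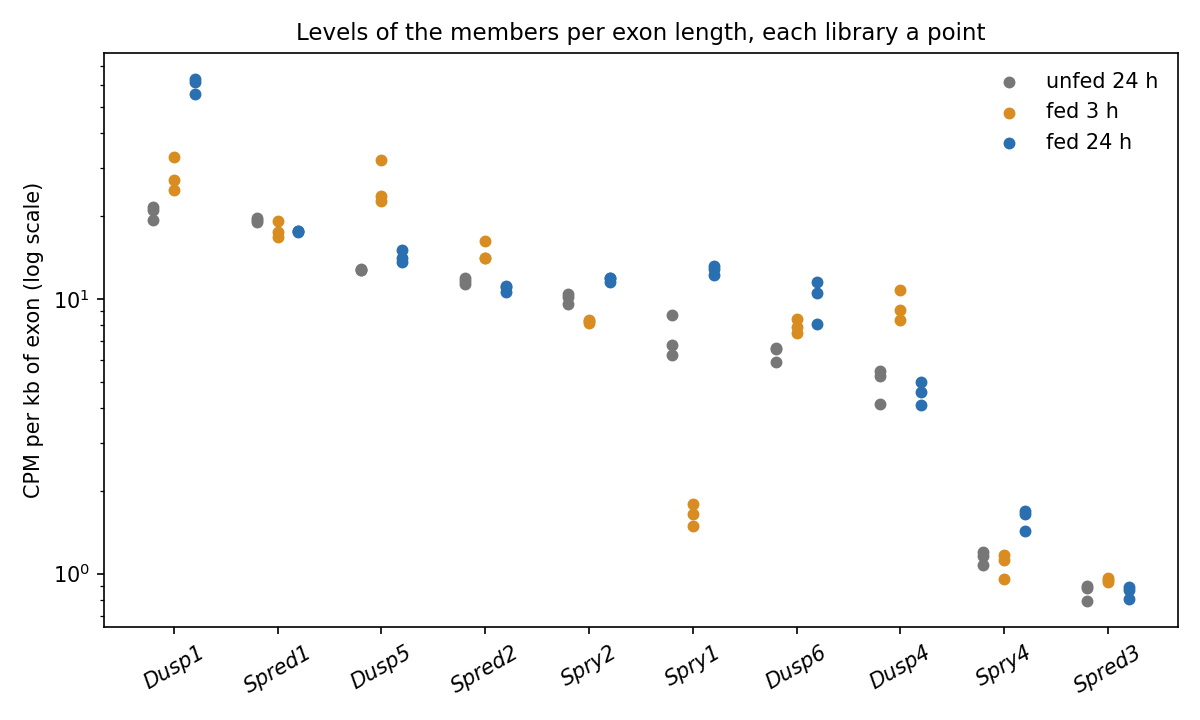
CPM per kb of annotated exon (log scale) for each gene, ordered by its level in unfed cells, with each library as a point coloured by group. Dusp1 has the highest mean in all 3 groups, and Spry1 drops from 7.26 in unfed to 1.65 CPM per kb in fed 3 h cells.

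Of the 10 members, 5 were higher (Dusp1, Dusp6, Spry1, Spry2 and Spry4) and 1 was lower (Spred1) in fed 24 h than in unfed cells. Over all tested genes, 14.9% were called higher and 15.9% lower in that comparison. The median log2 fold change was 0.19 over the members and −0.0013 over all tested genes. In fed 3 h against unfed cells 5 members were higher (Dusp1, Dusp4, Dusp5, Dusp6 and Spred2) and 3 lower (Spry1, Spry2 and Spred1). There 25.1% of all tested genes were called higher and 25.5% lower, and the medians were 0.23 over the members and −0.0085 over all tested genes. In fed 24 h against fed 3 h cells 5 members were higher (Dusp1, Dusp6 and the Sprouty genes) and 3 lower (Dusp4, Dusp5 and Spred2), beside 30.8% and 30.2% of all tested genes. In that comparison the medians were 0.16 and −0.0017. The 3 comparisons share libraries pairwise, so their counts are not independent, and since the members were chosen with these differences known, nothing is read from the counts.

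**Figure D3:**
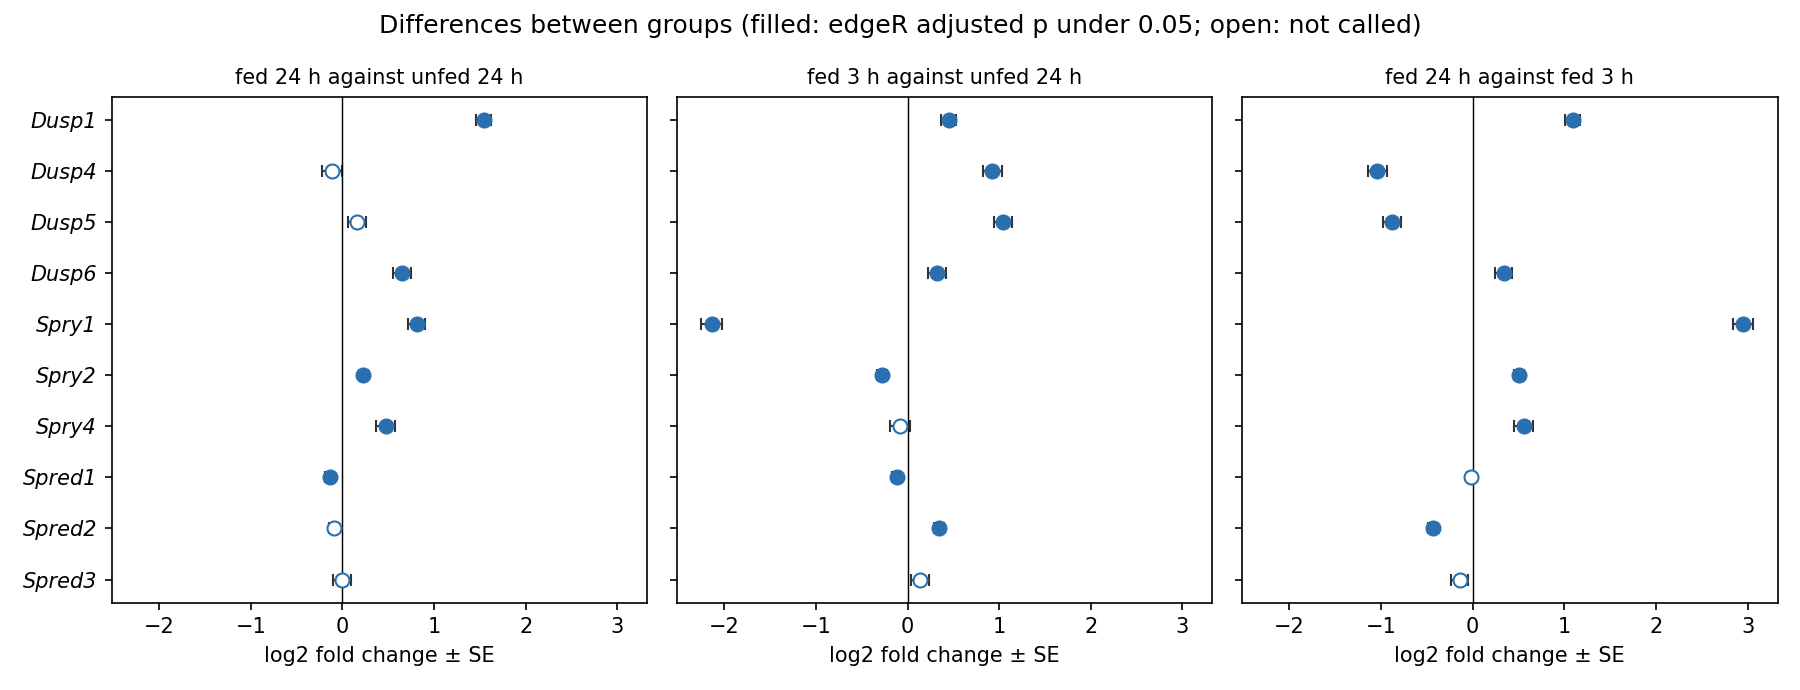
Log2 fold change ± SE (horizontal axis) of the 10 genes in the 3 comparisons, filled where the edgeR adjusted p was under 0.05 and open where it was not. Spry1 lies at −2.14 for fed 3 h against unfed cells and at 0.81 for fed 24 h against unfed cells, and Dusp1 lies at 0.45 and 1.54.

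Other measures also differed between fed 24 h and unfed libraries. Gm42418 and Gm26917, loci where reads of ribosomal RNA pile up, took 0.201% to 0.350% of the counts in fed 24 h against 0.0904% to 0.115% in unfed and 0.0927% to 0.249% in fed 3 h libraries. Mitochondrially encoded genes took 1.78% to 2.22%, 1.48% to 1.61% and 1.12% to 1.58%. Without both sets of genes the log2 fold change from unfed to fed 24 h was 1.54 for Dusp1, 0.66 for Dusp6 and 0.81 for Spry1, and the counts of members called were the same. Of 11 heat shock and handling stress genes, which include genes known to answer to cell sorting, 6 were higher and 2 lower at 24 h against unfed cells (median 0.32). Jun (log2 1.27), Btg2 (0.74) and Junb (0.39) were among those higher, and the chaperone Hsph1 (−0.36) among those lower. Only 1 was lower in the fit of the 6 libraries compared, or on leaving out unfed replicate 2, unfed replicate 3, or replicate 1 or 3 of the fed 24 h group. At 3 h 3 were higher and 3 lower (median −0.02). Hsp90aa1 (0.32) and Jun (0.29) were among those higher, and those lower were Btg2 (−1.22), Ier2 (−1.18) and Junb (−0.87). The 3 h call on Jun was lost without unfed replicate 1 (0.19), without fed 3 h replicate 2 (0.20) and by the DESeq2 Wald test (0.30). The summed level of these 11 genes overlapped between groups, at 2257 to 2497 CPM in unfed, 2390 to 2470 in fed 3 h and 2373 to 2498 in fed 24 h libraries. Most of that sum was Hspa8 and Hsp90aa1 (means of 1174 and 572 CPM in unfed cells), so it says little of the less abundant genes. The part of the 11 genes in the levels of Dusp1 was not tested. For this list and those below, the shares of all tested genes called against unfed cells were 14.9% higher and 15.9% lower at 24 h. At 3 h they were 25.1% and 25.5%. Many list counts are near these shares, and nothing is read from them.

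The genes with the closest course over the 9 libraries were named for each member by Pearson's r of log2 CPM, as a description. All points share the 3 groups and the same scaling, so r mostly follows the group means. Closest to Dusp1 were Ncam1, a cell adhesion molecule (r = 0.99, with 143.0, 154.7 and 190.8 CPM in unfed, fed 3 h and fed 24 h cells), and the receptor phosphatase Ptprs (r = 0.98). Both spanned a narrower range than Dusp1. Closest to Dusp5 were Atf6, a sensor of endoplasmic reticulum stress, and the receptor phosphatase Ptprj (r = 0.99 for both). Closest to Spry1 were Ggt5, which cleaves glutathione conjugates, and Mettl7a1 (r = 1.00 for both after rounding). Ggt5 averaged 23.8, 6.28 and 38.3 CPM and Spry1 21.1, 4.78 and 37.0 CPM, values not divided by exon length and so not compared as levels. Spry2 was closest to Pdgfrl and Iqsec2 (r = 0.99 for both). Spred2 was closest to Mast4 and to Erf, a repressor that ERK phosphorylates (r = 0.99 for both). Dusp4 was closest to Daam1 and Ola1 (r = 0.99 for both), and Dusp6 to Arid4b and Cast (r = 0.98 for both). For Spry4, Spred1 and Spred3 the closest genes reached r of 0.97, 0.95 and 0.92. These were Man2b1, Shoc2, which promotes RAF activation, and Wdr48.

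Of the 5 other MAP kinase phosphatases tested, 3 were higher at 3 h and 0 lower than in unfed cells (median log2 0.22). Dusp10, a phosphatase of p38 and JNK, stood at 35.1 ± 3.10 CPM against 17.2 ± 0.471 in unfed cells (SD, n = 3 each; log2 1.03, SE 0.0715, edgeR adjusted p = 1.83e-08). Dusp16, which acts on JNK, rose by 0.22. At 24 h the list had 0 higher and 1 lower against unfed cells (median −0.06), and Dusp10 was not called (0.16, edgeR adjusted p = 0.108). The lower gene was Dusp7, whose call was lost on leaving out unfed replicate 2 (−0.18), unfed replicate 3 (−0.17) or fed 24 h replicate 2 (−0.16). At 3 h Dusp7 was higher than in unfed cells (0.17), a call lost without unfed replicate 1 or fed 3 h replicate 1. Dusp2, a phosphatase of immune cells, had 0 counts in all libraries.

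Of 11 other feedback inhibitors of receptor and RAS signalling, 4 were higher and 1 lower at 24 h against unfed cells (median 0.15), and 6 higher and 2 lower at 3 h (median 0.16). Errfi1, an inhibitor of the EGF receptor, rose by 0.46 from unfed to fed 24 h (SE 0.0993, edgeR adjusted p = 0.00275) and was not called at 3 h (0.01, edgeR adjusted p = 0.934). Il17rd, which restrains FGF signalling and is also known as Sef, fell to 12.7 ± 1.23 CPM at 3 h against 27.4 ± 5.67 in unfed cells (log2 −1.11, SE 0.116, edgeR adjusted p = 1.34e-06) and stood at 34.7 ± 1.81 CPM in fed 24 h cells. Spry1 and Il17rd were thus both lowest at 3 h and highest at 24 h. The 24 h call on Il17rd (0.34, edgeR adjusted p = 0.0249) ended without any 1 unfed or fed 24 h library except unfed replicate 1, with values from 0.20 to 0.37, and by DESeq2. Lrig3 was higher than in unfed cells at both times (0.59 at 24 h and 0.67 at 3 h). Cbl, a ubiquitin ligase for activated receptors, was lower at 24 h (−0.30) and higher at 3 h (0.16). With unfed replicate 3 or a single fed 24 h replicate left out, the list had 2 higher and 1 lower at 24 h, and with fed 3 h replicate 3 left out it had 4 and 2.

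Of the 20 genes of the cascade from adaptors and RAS to ERK, 3 were higher and 4 lower at 24 h against unfed cells (median −0.02). The changes were small. Hras fell by 0.26 and Nras by 0.21. Without unfed replicate 3 the cascade had 0 higher and 4 lower, and without unfed replicate 2 it had 1 and 4. Without fed 24 h replicate 1 it had 1 higher and 3 lower, and without fed 24 h replicate 3 it had 0 and 5. At 3 h 9 were higher and 3 lower (median 0.11), among them the scaffold Ksr1 (−0.65). Ksr1 was among those higher at 24 h (0.24), and Nras was higher at 3 h (0.16). Of 13 tested receptor tyrosine kinases, 4 were higher and 1 lower at 24 h (median 0.10) and 4 and 4 at 3 h (median 0.01), where leaving out fed 3 h replicate 1 gave 2 and 4. Fgfr1, an FGF receptor, reached 244.3 CPM in fed 3 h cells against 127.2 in unfed cells (log2 0.94, SE 0.0435, edgeR adjusted p = 2.18e-10) and stood at 136.6 CPM in fed 24 h cells. Pdgfra, a PDGF receptor, rose by 0.29 at 24 h and fell by 0.25 at 3 h. Met, the receptor of hepatocyte growth factor, fell by 0.49 at 24 h and rose by 0.20 at 3 h. The 3 h call on Met was lost without unfed replicate 1 or fed 3 h replicate 1.

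Among 14 other transcripts that ERK is known to induce, 5 were higher and 2 lower at 24 h against unfed cells (median 0.12) and 7 higher and 3 lower at 3 h (median 0.17). The 24 h count was 4 higher and 4 lower with unfed replicate 1 left out and 3 higher and 2 lower with unfed replicate 2 left out, and with no filter the 3 h count was 7 higher and 5 lower. Etv4, an ETS factor, rose at 3 h to 29.4 ± 2.16 CPM, against 17.0 ± 1.33 in unfed cells (log2 0.79, SE 0.0746, edgeR adjusted p = 4.85e-07) and was not called at 24 h (−0.12, edgeR adjusted p = 0.268). Fosl1, an AP-1 subunit, rose by 0.69 at 3 h and fell by 0.31 at 24 h. Myc rose by 0.92 at 3 h. Egr1 ran the other way, at 183.2 CPM at 3 h and 924.7 CPM at 24 h of feeding against 398.3 CPM unfed. Fos stood at 18.8 and 304.0 CPM against 26.3 CPM, and its value at 3 h was not called (edgeR adjusted p = 0.151). Etv1, another ETS factor, stood at 6.12 CPM at 3 h and 11.8 CPM at 24 h of feeding against 9.02 CPM unfed. Ccnd1 was highest in unfed cells, at 469.1 CPM against 424.9 CPM at 3 h and 376.7 CPM at 24 h of feeding. It was called lower at both times, at 3 h not without replicate 2 or 3 of the unfed or fed 3 h group. Of the other transcripts named here, Etv4, Fosl1 and Myc were thus highest at 3 h, and Etv1, Egr1 and Fos at 24 h. Of all 14, 4 were higher and 8 lower in fed 24 h than in fed 3 h cells. Over all tested genes 30.8% were called higher and 30.2% lower there. Of the members called between the fed groups, Dusp4, Dusp5 and Spred2 were highest at 3 h, and Dusp1, Dusp6 and the Sprouty genes at 24 h. Of 6 proteins that bind AU-rich elements and control the decay of short-lived mRNAs, Zfp36 (log2 0.92) and Zfp36l1 (0.80) were higher at 24 h against unfed cells and lower at 3 h (−1.27 and −0.98). In all this list had 2 higher and 1 lower at 24 h (median −0.05), where leaving out unfed replicate 1 gave 2 and 3, and 2 higher and 2 lower at 3 h (median −0.04).

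**Figure D4:**
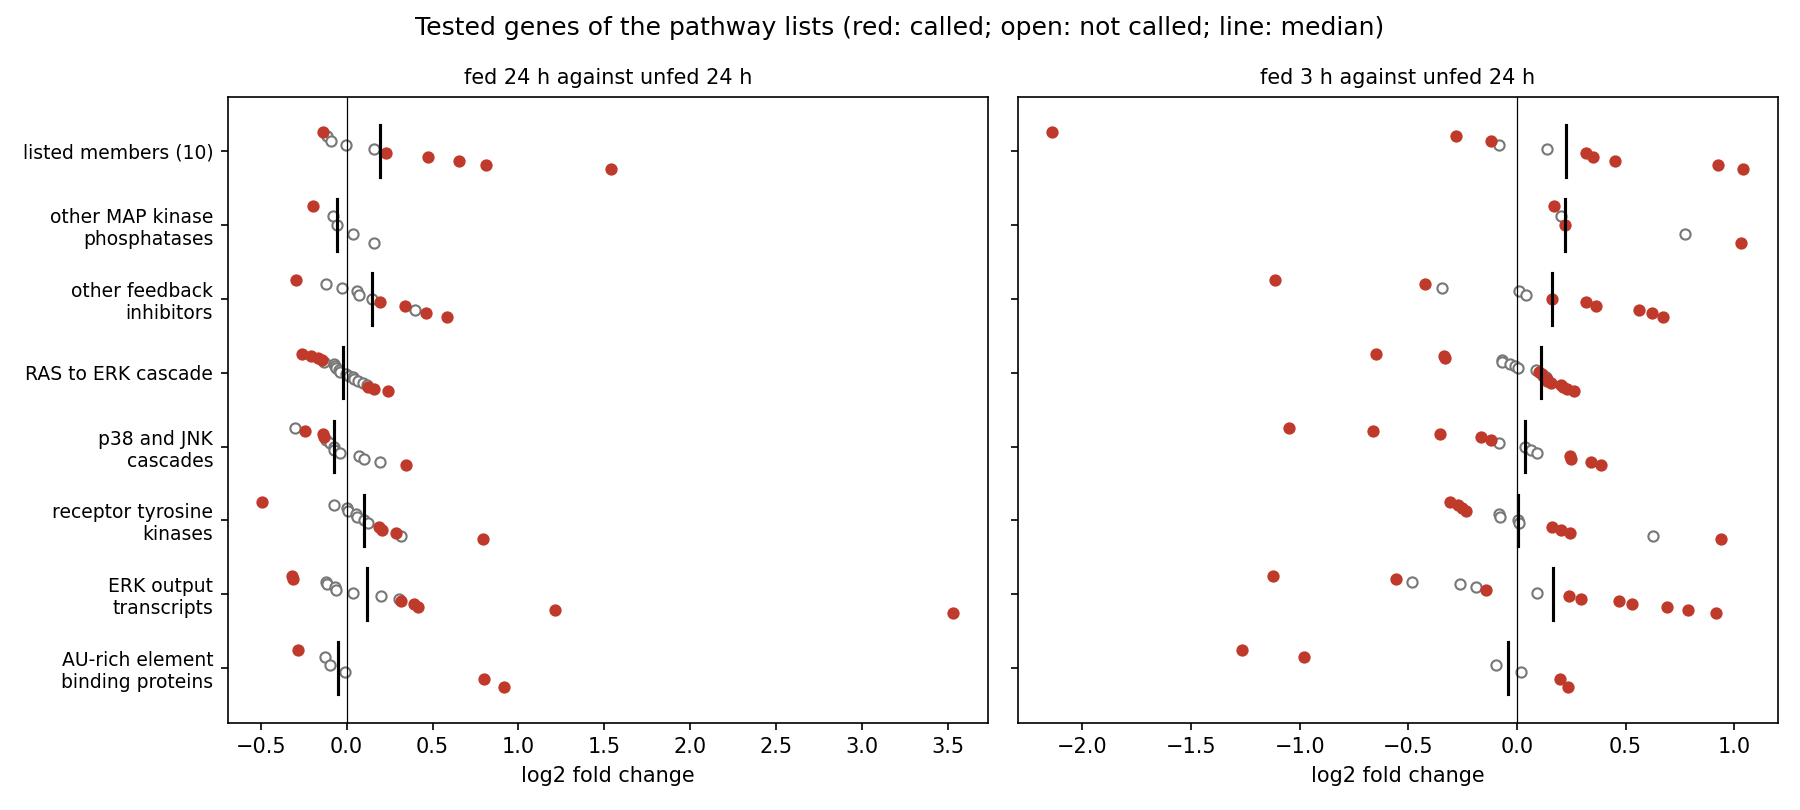
Log2 fold change (horizontal axis) of the members and tested list genes for fed 24 h (left) and fed 3 h (right) against unfed cells. Points are red where called and open where not, with a line at the list median. The atypical DUSPs, the heat shock and handling stress genes and the cell type markers are not drawn. The members' medians are 0.19 and 0.23, and the point farthest right on the left panel is Fos at 3.53.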

How the data were processed

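Raw read counts per mouse gene symbol were deposited by the authors, as 1 column for each of 9 libraries in 3 groups of 3. STAR 2.7.0f, featureCounts, Subread 1.6.4 and MultiQC 1.7 are named in the submitters' processing notes, with builds GRCm38.p6 and GRCh38.p13. For the strand setting, annotation release, reads with several matches and separation of human from mouse reads, the sources used here give nothing. The labels name different library kits in the sample protocol (stranded) and the series text (not known to keep strand). Of the members, Dusp5 and Spry1 share 22.1% and 24.4% of their exon bases with genes on the opposite strand (AC137853.2 and Gm42922) that had 81 and 50 counts over the 9 libraries, Spred3 shares 3.25% with Ggn (1149 counts) and Dusp1 11 bases with Ergic1. Symbols of 98.4% of the rows were found in GENCODE M21, and 26 rows held dates in place of symbols.

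All 13568 genes kept by filterByExpr were fitted with edgeR 4.0.16 (R 4.3.3; TMM, quasi-likelihood F-test, group as the only term), with Benjamini-Hochberg adjustment over all of them and calls at an adjusted p under 0.05. SE is the log2 fold change divided by the square root of F. The test was checked on simulated data. Alternatives were DESeq2 size factors, DESeq2 1.42.0, limma-voom (limma 3.58.1), other filters, the replicate number as a block, fits of 6 libraries, removal of mitochondrial and ribosomal RNA linked genes, and leaving out each library. Replicate libraries differed by more than counting noise (chi-square per degree of freedom 5.46 to 16.1). The members and lists were chosen with earlier results of these data known. From the other lists, up to 3 called genes per direction with at least 5 CPM were eligible to be named, by size of change. Others were named after their values were seen. They were Dusp2, Hspa8, Col1a1, Col1a2, Junb at 24 h, Cbl, Nras and Mapkapk2 at 3 h, and macrophage markers under 5 CPM. Values given for not being called were also chosen in this way. The 2 genes closest to each member were taken from genes with a mean of at least 5 CPM. Protein sequences were not used here. PCR copies could not be removed, so counts are not independent molecules.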

Additional observations from a re-analysis of the deposited data

How the results depend on the processing

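Each of the 30 pairs of member and comparison was recomputed under 17 alternatives, and 23 kept their direction and their side of the threshold under all of them. Of the 510 values, 482 did so, 15 lost a call, 3 gained one and 10 changed sign. No call on Dusp1, Dusp4, Spry1, Spry2 or Spry4 was lost. The sign changes were all of uncalled values near 0. Spred3 at 24 h against unfed cells, at −0.0031, was 0.0004861 with DESeq2 size factors, 0.0004026 with no filter, 0.00358 with the stricter filter, 0.0006682 by limma-voom and 0.0009033 by the DESeq2 Wald test. Leaving out single libraries gave it values from −0.058 to 0.041, Spry4 at 3 h against unfed cells values from −0.138 to 0.0024 and Spred1 between 3 h and 24 h values from −0.063 to 0.032. The number of members called was 5 to 7 at 24 h and 6 to 8 at 3 h against unfed cells, and 8 between fed groups. Over all genes, the number called was 2914 to 4425, 6034 to 6929 and 7580 to 8544. Without fed 24 h replicate 1, 1426 genes were lower at 24 h, against 2159 with all libraries.

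With the replicate number as a block, 6, 8 and 8 members were called, as without it. Libraries with the same number did not deviate together (r from −0.163 to 0.0578, and from −0.0971 to 0.104 for other numbers), so the numbers are not treated as pairing. By CPM with no length, 4 of 10 members held the same place in unfed cells. Depth limits the low genes most, with 227 to 439 counts in a library for Spry4, 240 to 311 for Spred3 and 207 to 260 for Spry1 at 3 h.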

Other observations

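The atypical DUSPs, smaller phosphatases that mostly lack the MAP kinase binding part, had 1 of 10 tested genes higher and 3 lower at 24 h against unfed cells (median −0.07). At 3 h 2 were higher and 5 lower (median −0.14). Over all tested genes 14.9% were called higher and 15.9% lower at 24 h, and 25.1% and 25.5% at 3 h. The same shares stand beside the counts of the p38 and JNK cascades below. Dusp3, which can act on ERK and JNK, stood at 44.7 CPM in fed 3 h cells, above unfed cells (log2 1.02, SE 0.0732, edgeR adjusted p = 2.54e-08) and stood at 17.6 CPM in fed 24 h cells (log2 −0.32 against unfed cells, edgeR adjusted p = 0.00509). At 24 h the list of atypical DUSPs had 0 higher and 1 lower with fed 24 h replicate 1 or 3 or unfed replicate 2 left out. With unfed replicate 3 left out it had 0 higher and 2 lower. At 3 h the list had 1 higher and 3 lower without unfed or fed 3 h replicate 1. It had 1 and 4 with unfed replicate 2 or 3 left out, and 2 and 3 with fed 3 h replicate 3 left out.

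In the cascades of p38 and JNK, 1 of 13 tested genes was higher and 3 lower at 24 h against unfed cells (median −0.07), and 4 were higher and 5 lower at 3 h (median 0.04). Mapkapk2, a kinase activated by p38, fell by 0.24 at 24 h and rose by 0.24 at 3 h. Map3k5, a stress kinase, rose by 0.35 at 24 h and fell by 0.66 at 3 h. Without unfed replicate 3, fed 24 h replicate 1 or 3, or with no filter, the 24 h count was 1 higher and 1 lower, and with fed 24 h replicate 2 left out it was 2 and 3. At 3 h the lower count was 2 or 3 with no filter, by DESeq2, or on leaving out unfed replicate 3 or a single fed 3 h replicate, and the higher count was 4 in each case.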
